A study of Homo sapiens with 32 samples.

Results

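The regions described here were 4707 summits of the ZNF143 list that lay away from gene starts and coincided with another factor. They were chosen by measured positions: a summit on chromosomes 1 to 22 or X, more than 2000 bp from the 5′ end of every protein-coding gene, with a summit of the SP1, NRF1 or YY1 list within 100 bp. The ZNF143 list held 16600 summits, of which 16165 lay on those chromosomes and 7723 met the distance rule. Of these 7723, 60.9% met the second condition, and the other 3016 had no summit of those lists that close. The 4707 are called gene-distal shared summits below, and the 3016 gene-distal solitary summits. A further comparison set was the 6914 ZNF143 summits no more than 2000 bp from such a 5′ end that also had another factor within 100 bp. Those conditions fixed which factors were near and how far the gene starts were, so counts of these are descriptions without a test.

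ZNF143 is a zinc finger protein that binds promoters of protein-coding genes and of small RNA genes transcribed by RNA polymerase II or III. Its long recognition sequence has a core, and many copies carry an upstream element, the ACTACA box, in front of it. SP1 binds GC boxes, NRF1 a palindromic CpG-containing site, and YY1 a site built around ATGG. All of them are best known from promoters. Away from promoters, ZNF143 has often been placed together with CTCF, the protein that marks many chromatin loop ends.

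ChIP-seq, which recovers crosslinked chromatin with an antibody and sequences the DNA, was done in HEK293T, an established human embryonic kidney line, in a single clone (HEK_CloneZD29) whose ZNF143 carries an inducible degron tag. The 32 samples fell into 10 groups: an untreated group and a group given 50 nM dTAGV-1, the degron ligand, for 30 minutes, for each of the SP1, NRF1 and YY1 antibodies (4 samples a group), for the HA epitope on ZNF143 and for a mock precipitation (2 samples a group). Every group carried the tagged ZNF143, and cells with untagged ZNF143 were not analysed here. The labels attach the ZNF143 and SP1 lists to both the untreated and the treated samples, and name no samples for those of NRF1 and YY1. Each summit has 1 score, the −log10 of a p-value (or of a q-value) given by the authors, with no value per sample. There were thus no replicates, treatment was not compared, and read depth was unknown. Intervals on shares are Wilson 95% intervals and cover counting among summits only, and p-values over summits describe how positions are arranged in these lists.

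The sequences that follow are from the hg38 reference and show copies of ZNF143 patterns at high-scoring gene-distal shared summits. They were chosen among summits that hold a pattern, while most gene-distal shared summits held no exact copy. The letters searched were CCCANAATG for the ZNF143 core, where N is any base, and ACTACANTT for the upstream element, on both strands and wholly within 50 bp of the summit. The 2 patterns do not overlap when one directly follows the other. All sites shown occur once in the assembly by the 31 bp at their summit, and those overlapping an exon of a protein-coding gene were left out. The first 4 carry the core and the next 3 the upstream element. Each is written 5′ to 3′ on the strand that reads the pattern, with the matching letters in capitals.
LMTK3 intron, chr19:48510715-48510775, minus strand: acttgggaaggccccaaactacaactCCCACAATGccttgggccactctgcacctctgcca
lncRNA start, chr11:43644184-43644244, minus strand: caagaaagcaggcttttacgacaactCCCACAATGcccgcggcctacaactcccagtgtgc
upstream of CAPNS1, chr19:36127903-36127963, minus strand: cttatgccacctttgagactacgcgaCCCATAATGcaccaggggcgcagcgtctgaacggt
SLC35A1 intron, chr6:87472798-87472858, minus strand: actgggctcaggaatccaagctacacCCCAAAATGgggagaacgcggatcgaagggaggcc
TCEA2 intron, chr20:64063013-64063073, plus strand: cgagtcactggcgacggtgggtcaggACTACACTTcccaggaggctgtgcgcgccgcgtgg
BCAT2 intron, chr19:48795551-48795611, minus strand: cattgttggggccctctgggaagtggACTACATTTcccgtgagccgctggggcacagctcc
GRIN2D intron, chr19:48419475-48419535, minus strand: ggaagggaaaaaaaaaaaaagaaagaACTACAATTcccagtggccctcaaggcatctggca

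In the 3 sequences of the upstream element, CCC follows it at once. This was so at 177 of the 200 gene-distal shared summits with the element (88.5%), and CCCA followed at 170 (85.0%), a count made after the sequences were seen. It was not particular to this set. CCC followed at 618 of 647 solitary summits with the element (95.5%) and at 212 of 228 shared ones near gene starts (93.0%). CCCA followed at 94.3% and 76.8% of these. The exact core joined to the element was rare, with both patterns at 2 gene-distal shared summits, directly joined in both. Both patterns were at 5 solitary summits and at 19 shared ones near gene starts. In exact form either pattern was at 310 gene-distal shared summits (6.59% of 4707), and 4397 held neither. The share with either was 26.7% of solitary summits and 4.95% of shared ones near gene starts. Since only exact matches were counted, this does not show 2 kinds of site.

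SP1 was the most frequent neighbour of the gene-distal shared summits. An SP1 summit lay within 100 bp of 3828 (81.3%, interval 80.2 to 82.4), a YY1 summit of 3279 (69.7%, 68.3 to 70.96) and an NRF1 summit of 1452 (30.8%, 29.5 to 32.2). The lists differ in length (126275 SP1, 106658 YY1 and 39194 NRF1 lines), and these shares follow that order. SP1 with YY1 was the largest combination with 1679 summits (35.7%), followed by SP1 alone with 1037 (22.03%) and all 3 factors with 925 (19.7%). The peak numbering of the NRF1 and YY1 lists skips at least 10 numbers in 61 places, and 360 of the 4707 (7.65%) lay in these stretches, 352 of them with SP1 alone. Of the 3016 solitary summits, 202 lay there (6.70%). Each stretch runs between neighbouring summits of the NRF1 or the YY1 list, which by definition has none inside it. The lack of these factors there, and its effect on the counts outside, thus follow in part from the definition. Outside the stretches the order turned, with all 3 factors at 921 of 4347 (21.2%) and SP1 alone at 685 (15.8%), while SP1 with YY1 was still the largest set (38.6%). Over all 4707, YY1 alone accounted for 539 (11.5%), NRF1 alone for 204 (4.33%), SP1 with NRF1 for 187 (3.97%) and NRF1 with YY1 for 136 (2.89%). Where the factors were present, the median distance from the ZNF143 summit was 30 bp for SP1, 33 bp for YY1 and 45 bp for NRF1. Summits within 10 bp of each other made up 20.8% of the SP1 pairs, 17.8% of the YY1 pairs and 12.3% of the NRF1 pairs.

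**Figure D1:**
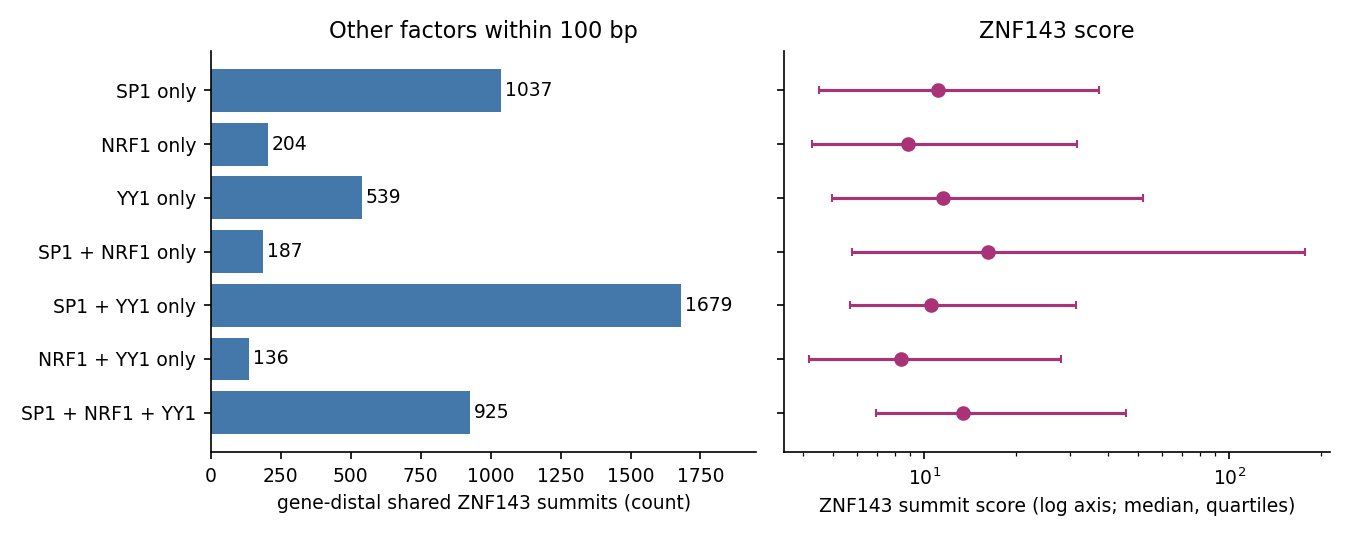
Left, number of gene-distal shared ZNF143 summits (bars) by which of SP1, NRF1 and YY1 had a summit within 100 bp. Right, median ZNF143 score of the same sets on a log axis, with bars from the first to the third quartile; SP1 with YY1 is the largest set (1679), and the quartile ranges of all 7 sets overlap.

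The ZNF143 scores of these combinations overlapped widely. The median was 16.2 with SP1 and NRF1, 13.4 with all 3 factors, 11.5 with YY1 alone, 11.1 with SP1 alone, 10.5 with SP1 and YY1, 8.85 with NRF1 alone and 8.36 with NRF1 and YY1. Over all 4707 the median was 11.4 with quartiles of 5.61 and 38.9, against 18.6 (6.69 and 79.7) for the gene-distal solitary summits and 15.5 (6.27 and 169) for the shared summits within 2000 bp of a gene start. The strongest sites were distributed otherwise: 355 of the 4707 (7.54%) were in the top 10% of the whole ZNF143 list by score, against 48 of 3016 solitary summits (1.59%) and 1158 of 6914 near gene starts (16.7%). The solitary set thus had the higher median and fewer of the very high scores. Scores rise with depth and are comparable only within this list.

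The neighbouring summits of SP1 and YY1 tended to rank high in their own lists, those of NRF1 less so. Where several lay within 100 bp the strongest was taken, which favours high ranks. Other gene-distal summits of these lists were not ranked beside them. The strongest SP1 summit within 100 bp had a median rank in the top 10.6% of the SP1 list, and 48.9% of them (1870 of 3828) were in its top 10%. For YY1 the median rank was the top 12.2%, with 42.9% in the top 10%, and for NRF1 it was the top 31.7%, with 13.2% in the top 10%. Near gene starts the corresponding medians were 8.45% for SP1, 6.96% for YY1 and 20.1% for NRF1. The median rank was thus lower at gene-distal sites in each of the 3 lists.

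At the edges of the definition, 20 gene-distal shared summits lay 2001 to 2050 bp from a protein-coding 5′ end with a median ZNF143 score of 11.8, and 27 shared summits lay just outside, at 1953 to 2000 bp, with a median of 6.96. The nearest other factor was 91 to 100 bp away at 128 members (median score 9.44) and 101 to 110 bp away at 119 solitary summits (9.09). The members lay in 4239 called peaks, and 1175 had another summit in the same peak. Chained within 1000 bp they formed 4230 loci, of which 3856 held 1 summit and 64 held 3 or more.

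The name gene-distal held for the 5′ ends of protein-coding genes but not for all annotated starts. A start of an annotated transcript lay within 500 bp of 1477 gene-distal shared summits (31.4%), against 24.8% of all gene-distal ZNF143 summits and 440 of the 3016 solitary ones (14.6%). At 921 (19.6%, interval 18.5 to 20.7) this was an alternative transcript start inside or beside a protein-coding gene. At a further 446 (9.48%) it was the start of a long noncoding RNA (lncRNA), at 44 a pseudogene and at 54 a small noncoding RNA. The solitary summits had an alternative protein-coding start in 8.22% of cases (7.29 to 9.26). More than 2000 bp from every transcript start lay 2733 of the 4707 summits.

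**Figure D2:**
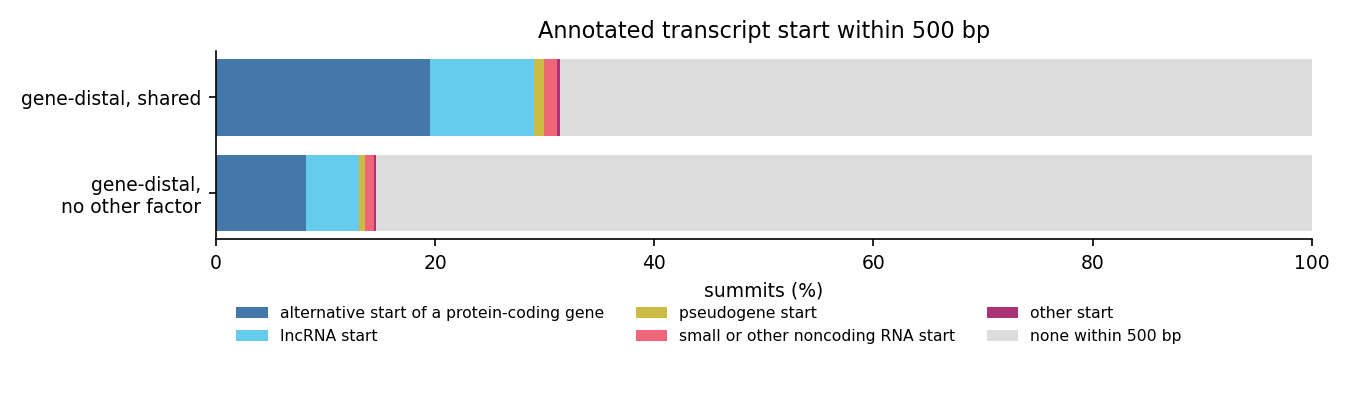
Share of gene-distal summits with an annotated transcript start within 500 bp, by kind of start, for shared (4707) and solitary (3016) ZNF143 summits. Each bar adds to 100%, and a summit near several kinds is counted under the first in the order of the legend; starts of any kind were near 31.4% and 14.6%.

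Base composition moved with this. In the 201 bp around the summit, the median GC content was 50.7% at gene-distal shared, 46.8% at solitary and 66.2% at gene-start summits. CpG-rich sequence, with GC above 50% and a CpG observed-to-expected ratio above 0.6, was found at 1615 shared (34.3%), 338 solitary (11.2%) and 5754 gene-start summits (83.2%). Among the 1477 shared summits within 500 bp of a transcript start it was found at 1080 (73.1%), and among the 2733 further than 2000 bp from any at 386 (14.1%). An NRF1 summit was at 45.6% of the former (43.04 to 48.1) and 23.1% of the latter (21.6 to 24.7). SP1 was at 74.0% (71.7 to 76.2) and 85.8% (84.5 to 87.1), and YY1 at 68.2% (65.8 to 70.5) and 69.8% (68.03 to 71.5). By definition every gene-distal shared summit has SP1, NRF1 or YY1 close by, so these shares are tied to each other. Where fewer summits have NRF1, more must have SP1 or YY1 as their only neighbour. The opposite directions of NRF1 and SP1 can thus follow in part from the definition, and these differences were not tested. The stretches of skipped NRF1 and YY1 peak numbers held 40 of the 1477 and 313 of the 2733. Without them, a setting added after the data were seen, YY1 was at 69.7% (67.3 to 72.05) and 78.7% (77.04 to 80.3). The stretches lack summits of the NRF1 or the YY1 list by definition. Leaving them out therefore raises those shares, more so in the set that held more of them, and the YY1 difference was not tested. NRF1 was then at 46.6% and 26.03%, and SP1 at 73.4% and 84.05%.

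By location, 1888 of the summits (40.1%) were in introns of protein-coding genes, 565 (12.0%) in their exons, 724 (15.4%) in lncRNA genes only and 1530 (32.5%) outside both. Solitary summits were in protein-coding introns in 38.7% of cases and in lncRNA genes only in 15.85%, shares close to these. They were in protein-coding exons in 6.40% and outside both in 39.03%. The median distance of a gene-distal shared summit to the nearest protein-coding 5′ end was 35881 bp, and 1389 (29.5%) were over 100 kb away. For solitary summits the median was 49497.5 bp, with 1045 (34.65%) over 100 kb away.

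Which DNA sequences the gene-distal shared summits carried was not a condition of their definition. All of them came from the ZNF143 list, however, so ZNF143 patterns above the flanks follow in part from how that list was made. The flank tests for these 2 patterns therefore only describe the list. The upstream element was at 200 of 4707 summits (4.25%, interval 3.71 to 4.86), against 6.82% of all ZNF143 summits. Windows of the same size 400 bp toward higher coordinates held it in 22 cases (0.467%), a difference of 3.78 percentage points (two-sided exact McNemar test, p = 1.9e-37 adjusted over 11 motifs). At the 5′ ends of protein-coding genes, 0.481% of windows of the same length held it. The core was at 112 summits (2.38%, 1.98 to 2.85), with 2.76% over the whole ZNF143 list, 15 in the flanks (0.319%) and 0.466% at protein-coding 5′ ends. That difference was 2.06 points (exact McNemar test, adjusted p = 5.79e-19).

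Both ZNF143 patterns were less frequent at shared than at solitary gene-distal summits. The upstream element was at 647 of 3016 solitary summits (21.5%, interval 20.02 to 22.9), a difference, shared minus solitary, of −17.2 points (95% interval −18.8 to −15.7; two-sided Fisher's exact test, p = 1.2e-120 adjusted over 11 motifs). The core was at 163 solitary summits (5.40%, 4.65 to 6.27), a difference of −3.03 points (−3.98 to −2.14; Fisher's exact test, adjusted p = 1.62e-11). Against the shared summits near gene starts, the upstream element was 0.951 points more frequent at the gene-distal shared ones (0.250 to 1.68; 228 of 6914; Fisher's exact test, adjusted p = 0.00958). By the same exact test that last difference did not pass the threshold of 0.05 with windows of 25 bp (adjusted p = 0.0673), windows of 100 bp (0.0737) or 1 mismatch (0.860). For the core the difference was 0.456 points (−0.0753 to 1.02; 133 of 6914; Fisher's exact test, adjusted p = 0.100), and it passed the threshold under 4 of the other settings tried, all in the same direction.

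**Figure D3:**
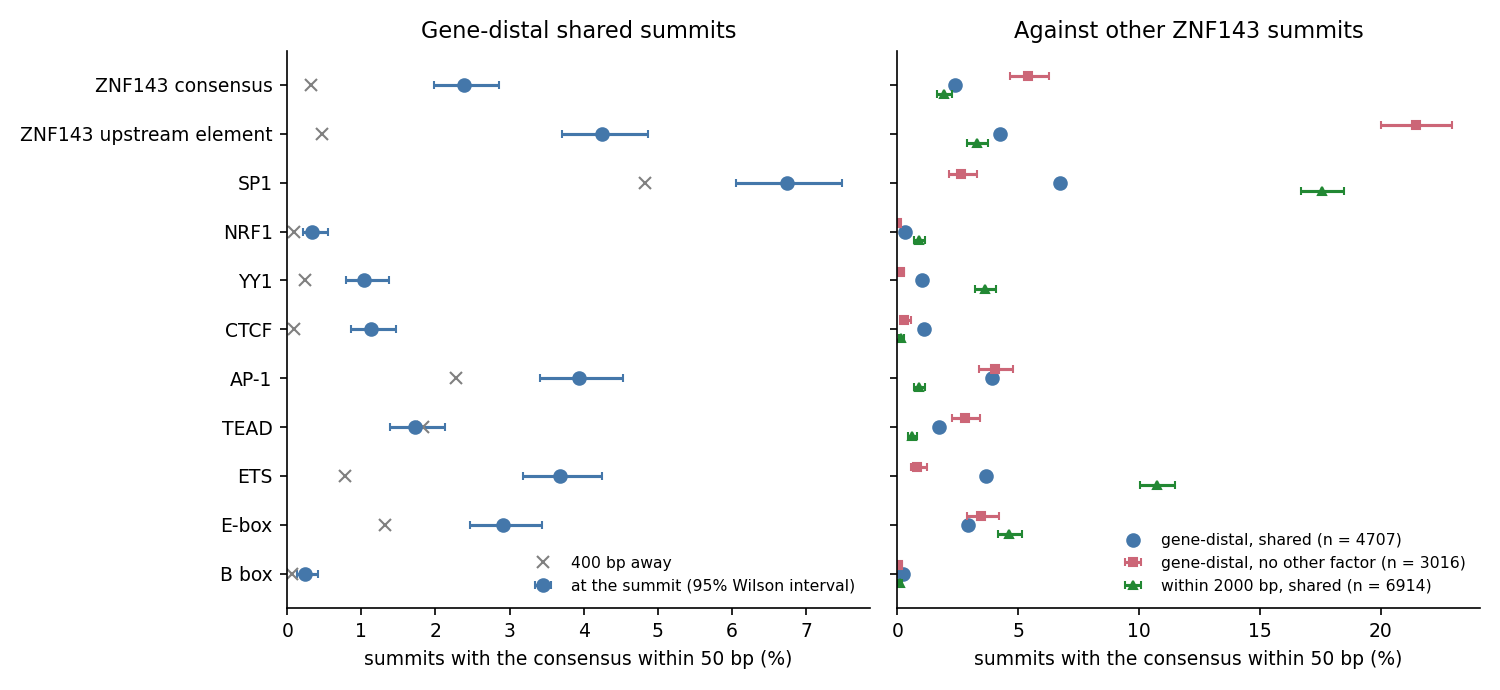
Left, share of the 4707 gene-distal shared summits with each consensus within 50 bp (circles, 95% Wilson intervals) and share of their flanks 400 bp away (crosses). Right, the same circles beside solitary gene-distal summits (squares) and shared summits within 2000 bp of a gene start (triangles), both with 95% intervals; the upstream element is at 4.25% of the first and 21.5% of the second set.

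The 2 patterns went with very different ZNF143 scores. Gene-distal shared summits with the upstream element had a median score of 2223 (quartiles 903 and 4570), and 123 of the 200 were in the top 10% of the whole list. Those without it had a median of 10.6 (5.44 and 30.4). With the core the median was 96.4 (20.9 and 788). Solitary summits with the upstream element had a median of 150 (49.97 and 407), and 16 of 647 were in the top 10%.

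Across 4 equal groups of gene-distal shared summits by score, the upstream element was at 0.510%, 0.255%, 0.510% and 15.7% of summits, from the lowest to the highest group. The step to the highest group, with scores from 38.9 upward, accounted for 185 of the 200 copies. The core was at 0.340%, 0.680%, 2.38% and 6.12%. In the solitary set, the upstream element was at 55.4% of the highest-scoring group (interval 51.9 to 58.95) and the core was highest in the second group, at 8.62% (6.82 to 10.8), where scores were 6.69 to 18.6, against 4.64% (3.36 to 6.39) in the group with the highest scores. Among shared summits the core was instead most frequent in the highest-scoring group.

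**Figure D4:**
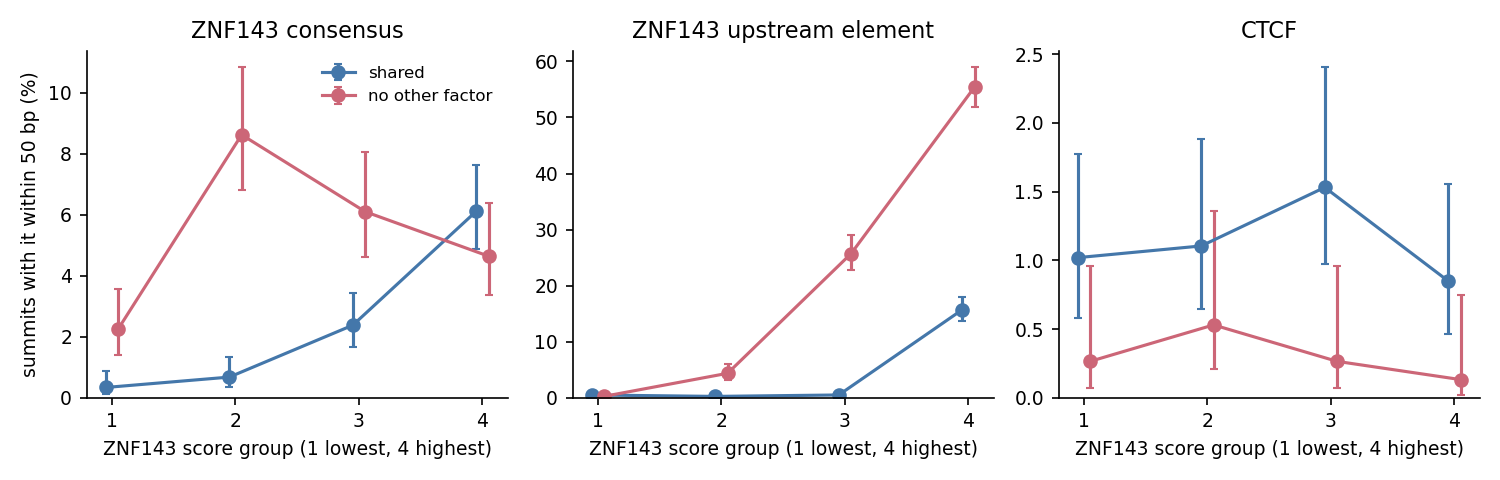
Share of summits with the ZNF143 core consensus, the upstream element and the CTCF consensus within 50 bp, with 95% Wilson intervals, in 4 equal groups by ZNF143 score for shared and solitary gene-distal summits. Among shared summits the upstream element rises only in group 4 (15.7%); the groups of the 2 sets have different score limits.

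The position of the copies relative to the summits was read along the strand of each pattern. The ZNF143 summit lay at a median of 6 bp downstream of the middle of the core (quartiles −7 and 20, n = 112) and 20.5 bp downstream of the middle of the upstream element (12.75 and 27, n = 200). The core thus sat under the summit, and the upstream element mostly to its upstream side. At summits with the upstream element, the nearest YY1 summit was at a median of 32 bp downstream (n = 167) and the nearest SP1 summit at 40 bp (n = 147). At summits with the core the SP1 summits spread widely to both sides, with quartiles of −49 and 45.2 bp around a median of 6.5 (n = 92). Of the 200 summits with the upstream element 83.5% had YY1 (77.7 to 88.0) and 73.5% SP1 (66.98 to 79.1), and of the 112 with the core 61.6% had YY1 (52.4 to 70.09) and 82.1% SP1 (74.02 to 88.1).

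**Figure D5:**
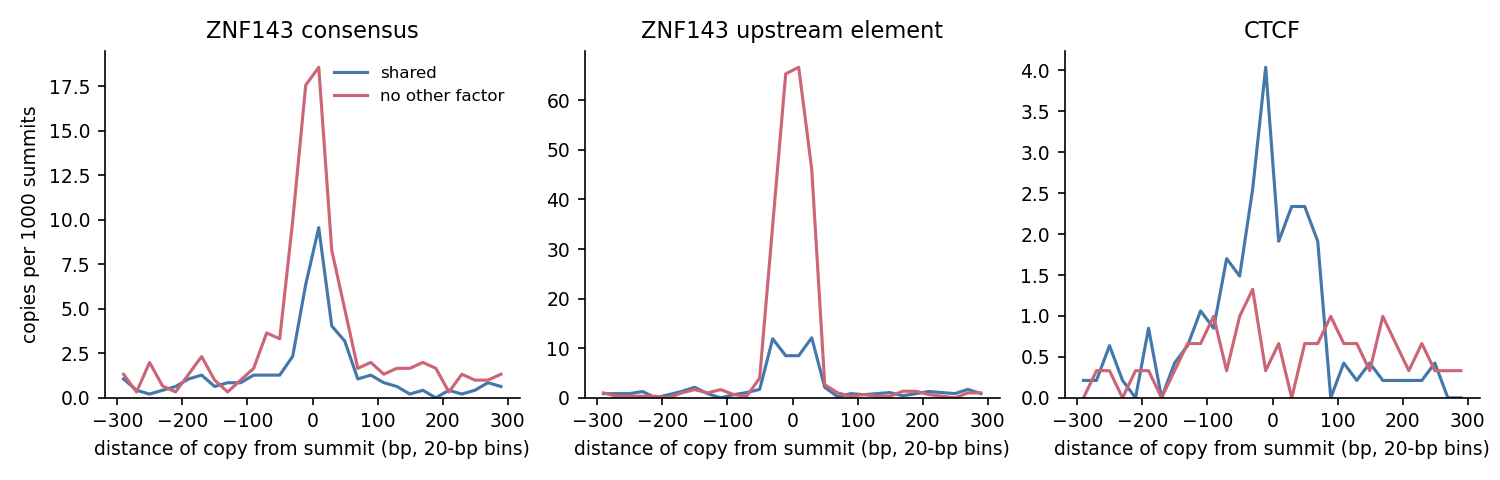
Copies of the ZNF143 core, the upstream element and the CTCF consensus per 1000 summits in 20-bp bins of distance from the ZNF143 summit, for shared and solitary gene-distal summits. Copies of the first 2 stand above the flanks within about 50 bp of the summit in both sets; the CTCF bins rest on few copies, and there the shared set is the higher.

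The CTCF consensus, a 12-letter pattern searched by its degenerate form, was at 53 of the 4707 gene-distal shared summits (1.13%, interval 0.862 to 1.47). It was at 0.445% of all ZNF143 summits, 72 in number, so that 53 of those 72 were in this set. The flanks held it in 4 cases (0.0850%), 1.04 points less (exact McNemar test, adjusted p = 1.62e-11), and protein-coding 5′ ends in 0.100%. It was at 9 of 3016 solitary summits (0.298%, 0.157 to 0.566), a difference of 0.828 points (0.451 to 1.20; Fisher's exact test, adjusted p = 6.44e-05), and at 10 of 6914 near gene starts (0.145%, 0.0786 to 0.266), a difference of 0.981 points (0.691 to 1.33; Fisher's exact test, adjusted p = 3.0e-12). The direction and the side of the threshold were the same under all alternatives tried for these 3 comparisons.

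The copies printed next were among those with the highest ZNF143 scores at shared summits of unique sequence with a CTCF consensus, which is in capitals.
TARID and LINC01312, chr6:133837907-133837970, plus strand: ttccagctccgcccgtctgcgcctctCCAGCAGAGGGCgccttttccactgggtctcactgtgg
TOM1L2 intron, chr17:17850186-17850249, minus strand: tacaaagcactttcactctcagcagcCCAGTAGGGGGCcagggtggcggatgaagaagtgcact

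At the first, in 2 overlapping lncRNA genes and at −51148 bp from the transcription factor gene TCF21, SP1 was 32 bp and YY1 34 bp from the ZNF143 summit (negative distances are upstream). At the other SP1 was 4 bp and YY1 8 bp away.

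Unlike the sites with ZNF143 patterns, summits with the CTCF consensus did not have high ZNF143 scores. Their median was 12.0 (quartiles 6.27 and 23.6), none of the 53 was in the top 10% of the list, and the pair shown scored 1068 and 369. The share was 1.02%, 1.10%, 1.53% and 0.850% from the lowest to the highest score group, with overlapping intervals. Of the 53, 49 had SP1 (92.5%, 82.1 to 97.03), 44 YY1 (83.02%, 70.8 to 90.8) and 22 NRF1 (41.5%, 29.3 to 54.9). None held the upstream element and 1 the core. The YY1 summit lay within 25 bp of the middle of the consensus at 24 of 44, the ZNF143 summit at 33 of 53 and the SP1 summit at 19 of 49. Within 500 bp of a transcript start lay 16 of the 53, and 31 were more than 2000 bp from all of them. No antibody to CTCF was used in the series.

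Other DNA patterns were searched in the same windows. The ETS pattern CCGGAAG was at 173 shared summits (3.68%; 6.12% of all ZNF143 summits; flanks 0.786%), AP-1 (TGANTCA) at 185 (3.93%; 2.47%; 2.27%) and the E-box CACGTG at 137 (2.91%; 3.71%; 1.32%). All of these exceeded the flanks (exact McNemar tests, adjusted p = 5.85e-22, 5.29e-06 and 1.29e-07). With 1 mismatch the AP-1 difference turned to −3.34 points. The TEAD pattern ACATTCC (81, 1.72%; 1.39% of all ZNF143 summits; flanks 1.83%) and the B box of RNA polymerase III genes, GTTCGAANC (11, 0.234%; 0.148%; 0.0637%), did not pass (exact McNemar tests, adjusted p = 0.753 and 0.0631). The B box passed with windows of 100 bp (0.361 points; exact McNemar test, adjusted p = 0.00255), and against flanks 1000 bp away its difference was −0.0637 points (adjusted p = 0.690).

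Against summits near gene starts, ETS and AP-1 differed in opposite directions, while the AP-1 difference from solitary summits did not pass the threshold. ETS was at 25 solitary summits (0.829%) and 744 near gene starts (10.8%), differences of 2.85 and −7.09 points for gene-distal shared minus each (Fisher's exact tests, adjusted p = 6.27e-16 and 3.29e-47). The first of these did not pass when summits within 2000 bp of any transcript start were left out (0.566 points; Fisher's exact test, adjusted p = 0.0892). AP-1 was at 122 solitary summits (4.05%), a difference of −0.115 points (−1.04 to 0.763; Fisher's exact test, adjusted p = 0.811), which passed with 1 mismatch (−3.79 points, adjusted p = 9.42e-04). It was at 62 near gene starts (0.897%), a difference of 3.03 points (2.46 to 3.66; Fisher's exact test, adjusted p = 6.11e-28). The TEAD pattern was likewise more frequent than near gene starts, by 1.11 points (42 of 6914; Fisher's exact test, adjusted p = 2.81e-08). Against solitary summits its difference was −1.06 points (84 of 3016; Fisher's exact test, adjusted p = 0.00287), and this did not pass under 4 alternatives, with adjusted p from 0.101 to 0.988. The E-box differed by −1.72 points from summits near gene starts (320 of 6914; Fisher's exact test, adjusted p = 3.52e-06). From solitary summits it differed by −0.571 points (−1.41 to 0.221; Fisher's exact test, adjusted p = 0.177), a difference that passed under 3 alternatives in the same direction. The B box was at 1 solitary summit and 7 near gene starts, differences of 0.201 and 0.133 points (Fisher's exact tests, adjusted p = 0.0434 and 0.100), and the first did not pass under 5 alternatives. The GC content of the 3 sets differed, as given above, and its part in these differences was not tested.

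The patterns of SP1, NRF1 and YY1 belong to the factors that divided shared from solitary summits, so their counts beside flanks and solitary summits are given without a test. The GC box GGGCGGG was at 317 shared summits (6.73%; 11% of all ZNF143 summits; flanks 4.82%) and 80 solitary ones (2.65%). The NRF1 pattern GCGCATGCG was at 16 (0.340%; 0.489%; 0.0850%) and 0, which allows a solitary share of up to 0.127% by its Wilson limit. The YY1 pattern AANATGGCG was at 49 (1.04%; 1.91%; 0.234%) and 3 (0.0995%). Of these shared summits, 211 (GC box), 15 (NRF1) and 40 (YY1) lay within 500 bp of a transcript start. For the 2733 beyond 2000 bp of every start, summit minus flank was 0.768, 0.0366 and 0 points in that order. Most gene-distal shared summits held no exact copy for the factor beside them. The YY1 pattern was at 1.40% of the 3279 with a YY1 summit and the NRF1 pattern at 0.964% of the 1452 with NRF1. The GC box was at 6.50% of the 3828 with SP1. Without the factor nearby, the shares were 0.210% of 1428 for YY1 and 0.0614% of 3255 for NRF1. For the GC box it was 7.74% of 879, so it was not more frequent beside SP1 summits.

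Part of the set lay in sequence that the assembly holds more than once. The 31 bp at the summit occurred at several places for 691 of the 4707 (14.7%) and at 10 or more for 298, with a maximum of 80269 places. The share at several places was nearly the same for solitary summits (414 of 3016, 13.7%), and 8.80% over all 16165 ZNF143 summits. From which copy such reads came is not known. Among the 1037 with SP1 alone this was 444 (42.8%), among the 1679 with SP1 and YY1 88 (5.24%). Of the 360 in stretches of skipped NRF1 and YY1 peak numbers, 298 were repeated in this sense. The 3 highest scores of all, 54550.2, 52585.2 and 40713.1, lay at positions 6371967, 6369855 and 6370857 of chromosome 21, each in sequence present at 2 places, with SP1 38, 82 and 49 bp away.

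Among summits whose 31 bp occur once, the highest scores lay inside genes and had all 3 other factors close by. The first, 37372, lay within PNPLA6 (ENSG00000032444.17), which encodes a phospholipid-degrading esterase, in an intron at position 7551522 of chromosome 19. Measured from the gene's 5′ end it was at 17518 bp, where positive values are downstream and negative ones upstream. A YY1 summit lay 14 bp, an NRF1 summit 28 bp and an SP1 summit 59 bp away, and neither ZNF143 pattern was found. The second, 27196, was at position 64063070 of chromosome 20 in TCEA2 (ENSG00000171703.17), a transcription elongation factor gene, and its sequence is among those printed. It was at 13234 bp from the gene's 5′ end but at −88 bp from an alternative transcript start, with YY1, SP1 and NRF1 at 10, 12 and 13 bp.

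The third, 23802, was at position 42244837 of chromosome 19, at −2212 bp from GSK3A (ENSG00000105723.13), which encodes a glycogen synthase kinase, with SP1, YY1 and NRF1 at 5, 12 and 44 bp. The fourth, 22871, was at position 48795560 of chromosome 19 in BCAT2 (ENSG00000105552.15), the mitochondrial branched-chain aminotransferase, 15469 bp downstream of its 5′ end and 1983 bp from an alternative start. The fifth, 22012, was at position 56141010 of chromosome 19 in an exon of the zinc finger gene ZNF444 (ENSG00000167685.15), 59 bp downstream of an alternative start. In BCAT2 the YY1 summit was 14 bp and the SP1 summit 26 bp away, and in ZNF444 they were 39 and 35 bp away. All of these except the TCEA2 site were on chromosome 19, which held 347 of the 4707 summits (7.37%) and 1303 of all 16165 ZNF143 summits.

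The printed site in GRIN2D, a glutamate receptor subunit gene, was the next with the upstream element outside exons. It scored 19703 at position 48419464 of chromosome 19, at 25796 bp from the gene's 5′ end, with SP1 1 bp and YY1 6 bp away.

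The strongest copies of the exact core included sites at the edge of the distance rule. The highest, 18383, was at position 450274 of chromosome 11 in PTDSS2 (ENSG00000174915.12), a phosphatidylserine synthase gene, 2006 bp from the gene's 5′ end and at −5 bp from an alternative transcript start. The LMTK3 site (14612, position 48510709 of chromosome 19, a kinase gene) was 3226 bp from the gene's 5′ end, with YY1 at 4 bp and SP1 at 23 bp. The site on chromosome 11 at 43644202 scored 13344 and lay at −21 bp from the start of the lncRNA ENSG00000283341, with NRF1 at 8 bp and SP1 at 12 bp. The SLC35A1 site (6884, position 87472783 of chromosome 6, the gene of the Golgi CMP-sialic acid transporter) was at −142 bp from an alternative start. The site between genes on chromosome 19 at 36127938 (7931), at −12015 bp from the calpain subunit gene CAPNS1, was 6043 bp from the nearest annotated start. Among these 5, 3 were within 500 bp of an annotated transcript start.

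Noncoding genes accounted for other high scores. Positions 19776525, 50148315 and 51594526 of chromosome 19 scored 16510, 15051 and 14734 at −36, −13 and −35 bp from the starts of the lncRNA ENSG00000291177, the lncRNA ENSG00000287001 and the transcribed pseudogene ENSG00000269388. Position 56315028 of chromosome 19 (14241) was at 325 bp from the start of ZSCAN5A-AS1 and at −103 bp from an alternative start of ZSCAN5A. RNY1, a Y RNA gene of chromosome 7, had a summit of 13145 at −119 bp from its start with SP1 12 bp away. Annotated small nuclear RNA genes lay within 500 bp of 38 gene-distal shared (0.807%) and 24 solitary summits (0.796%), nearly equal shares.

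Further than 100 kb from every protein-coding 5′ end, the highest scores with unique sequence were 14388, 8276 and 7883. The first, at position 10147157 of chromosome 6, lay at 272502 bp from the 5′ end of TFAP2A, a transcription factor gene, with YY1 at 13 bp and SP1 at 43 bp, and 28705 bp from the nearest annotated start. The second, at position 32203409 of chromosome 14, was at −140 bp from the start of RNU6-8, a U6 small nuclear RNA gene. The third, at position 30580173 of chromosome 20, held the upstream element, with YY1 at 13 bp, SP1 at 69 bp and NRF1 at 86 bp, and its nearest annotated start was 34572 bp away.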

How the data were processed

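Per the submitters' processing notes, cutadapt, Bowtie2, SAMtools 1.16.1, MACS3 and bedtools were used with hg38, with no role or settings given. The authors deposited 4 lists of 1-bp summits without headers. From the values, column 5 of the deposited lists is a −log10 p-value or q-value; which of the 2 is not stated, and the lowest value is 2.00. Scores rise with depth, which is unknown, and were compared within the ZNF143 list only.

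Distances were computed to GENCODE 44 gene and transcript 5′ ends and between summits. Sequences came from hg38 (pysam 0.24.0, numpy 2.4.6). Motifs were matched exactly on both strands within 50 bp. Summit and flank were compared by two-sided exact McNemar tests and sets of summits by two-sided Fisher's exact tests (scipy 1.17.1), with Benjamini-Hochberg adjustment over 11 motifs and a threshold of 0.05. Motif search and tests were tested on simulated data. Neighbouring summits are not independent; 1 summit per peak was an alternative. The members, motifs and comparisons were chosen with earlier results of these data known. Named positions were the 3 highest scores, then, among summits with unique 31 bp, the 5 highest, 5 with the ZNF143 core, 3 with the CTCF consensus, 5 within 500 bp of a noncoding gene's 5′ end, 3 beyond 100 kb and 3 with all other factors. A position with the CTCF consensus and a host gene are not reported here. Sequences of the upstream element were chosen by the same score order. Lines on other chromosomes or contigs were left out. The mock samples were not analysed here.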

Additional observations from a re-analysis of the deposited data

How the results depend on the processing

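The share of gene-distal ZNF143 summits with another factor, 60.95%, was 46.8% within 50 bp and 72.4% within 250 bp. It was 62.2% beyond 1000 bp, 58.8% beyond 10000 bp and 54.96% beyond 2000 bp of every transcript start, and 48.2% in the top 50% of each list and 37.4% with equal list lengths. Against summits near gene starts, the difference in the ZNF143 core passed the threshold with windows of 25 bp (0.657 points), 1 mismatch (3.96), the looser CCCANNATG (1.11) and the degenerate 10-letter consensus (2.20). The difference in the upstream element no longer passed with windows of 25 bp (0.477 points), windows of 100 bp (0.684) or 1 mismatch (0.114). The cause was not tested. With 1 mismatch, AP-1 against the flanks turned to −3.34 points and TEAD to 2.17. The alternatives for the upstream element and the other motifs were added after the data were seen. No paired analysis was possible because the lists carry no value per sample, and no replicate could be left out.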

Other observations

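The gene-distal shared summits were spread over the bodies of 1793 protein-coding genes, and 30 genes held 5 or more. These genes were singled out after their counts were seen. LRMDA, a gene of 1128.5 kb on chromosome 10, held 15 with a median score of 9.84, of which 13 had YY1 and 11 SP1. BCOR, which encodes a BCL6 corepressor, held 12 in 127.5 kb of chromosome X (40049815 to 40177329), with scores of 4.35 to 39.9. HOXA3, a homeobox gene of chromosome 7, held 8 in 46.4 kb and TFAP2A 6 in 26.5 kb, in both cases with scores below 16. RAD51B (910.4 kb) and WWOX (1113.3 kb) held 9 each, GMDS (621.8 kb) and TBC1D5 (1287.7 kb) 8 each and ERCC1 (71.5 kb) 7. Per Mb of gene, these counts ranged from 6.21 in TBC1D5 to 226.6 in TFAP2A, with 13.3 in LRMDA. Counts by gene are not given for the other summit sets.

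CCDC200 on chromosome 17 (43216941 to 43305397) differed from the others. It held 13 summits with a median score of 429, all with SP1 and none with NRF1 or YY1. All 13 were in sequence present at several places in the assembly, and 10 lay within 500 bp of an annotated small nuclear RNA gene.

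The largest run of neighbouring summits was 11 within 3196 bp of chromosome 5 (49657979 to 49661174), with scores of 2.08 to 37.9. All 11 had SP1 alone and lay in a stretch of skipped NRF1 or YY1 numbers, where the list that skips has no summit by definition. Of the 8 runs with 5 or more summits, 5 were on chromosome 4 between 49094082 and 49711401.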
